A study of Mus musculus with 37 samples.

Results

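The levels of 10 genes of tumor necrosis factor (TNF) signaling were followed through the urothelial tissues of mice given the carcinogen N-butyl-N-(4-hydroxybutyl) nitrosamine (BBN). The genes were taken by symbol from the 24421 symbols of the table: the ligand Tnf, its receptors Tnfrsf1a and Tnfrsf1b, the feedback inhibitors Tnfaip3 and Nfkbia, the NF-kB subunits Nfkb1, Nfkb2 and Relb, and the receptor-bound adaptors Birc3 and Traf1. All 10 were present and passed the filter on low counts in each of the 6 comparisons. RNA was sequenced from whole tissue of wild-type female BALB/c mice, in 37 libraries. UT is the cancer-bearing ureter (n = 11, from 10 mice) and UN the ureter without cancer (n = 7) of mice given BBN for 18 weeks. U is the ureter of mice given none (n = 6, both ureters of 3 mice). Bladders carry the same mouse numbers, 10 from animals given BBN and 3 from animals given none. BBN was the 1 agent, and no group carried an engineered genetic change. In whole tissue fewer cells of a type and less RNA per cell cannot be told apart.

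TNF is an inflammatory cytokine made mostly by macrophages and other immune cells. It binds TNFR1 (Tnfrsf1a), present on most cells, and TNFR2 (Tnfrsf1b), more restricted to immune and endothelial cells, and both lead through adaptors to IKK and the transcription factor NF-kB. NF-kB in turn switches on its own brakes, the inhibitor IkBa (Nfkbia) and the ubiquitin-editing enzyme A20 (Tnfaip3), and also the genes of its precursors p105 (Nfkb1) and p100 (Nfkb2), of RelB, and of the adaptors cIAP2 (Birc3) and TRAF1.

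Promoter sequences are shown first, since NF-kB binds short DNA motifs in front of such feedback genes. RefSeq (GRCm38.p6) gave start sites for 8 of the 10 genes, 11 in all, and none for Nfkb1 and Relb. Each window holds the 250 bases upstream of a start site, 5′ to 3′ on the gene's strand, and capitals mark matches to GGGNNNNNCC on either strand, overlapping ones merged. The windows printed are those of the ligand, a receptor, the feedback inhibitor with the highest level and an adaptor with no match, and they lie outside the annotated exons of their gene.

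Tnf: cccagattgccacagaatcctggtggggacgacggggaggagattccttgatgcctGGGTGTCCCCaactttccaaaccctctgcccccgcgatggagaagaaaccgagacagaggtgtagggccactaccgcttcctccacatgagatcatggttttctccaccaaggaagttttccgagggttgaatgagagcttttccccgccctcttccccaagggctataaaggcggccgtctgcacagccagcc
Tnfrsf1b: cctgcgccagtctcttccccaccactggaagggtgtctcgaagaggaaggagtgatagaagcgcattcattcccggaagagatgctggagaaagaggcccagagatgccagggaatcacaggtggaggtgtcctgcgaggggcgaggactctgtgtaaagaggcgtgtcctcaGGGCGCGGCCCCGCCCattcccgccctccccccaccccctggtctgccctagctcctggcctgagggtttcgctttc
Nfkbia: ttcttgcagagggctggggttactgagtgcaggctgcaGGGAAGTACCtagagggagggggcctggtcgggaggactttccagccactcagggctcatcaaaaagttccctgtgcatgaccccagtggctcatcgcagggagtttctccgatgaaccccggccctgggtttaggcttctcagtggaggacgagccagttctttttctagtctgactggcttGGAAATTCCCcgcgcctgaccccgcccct
Traf1: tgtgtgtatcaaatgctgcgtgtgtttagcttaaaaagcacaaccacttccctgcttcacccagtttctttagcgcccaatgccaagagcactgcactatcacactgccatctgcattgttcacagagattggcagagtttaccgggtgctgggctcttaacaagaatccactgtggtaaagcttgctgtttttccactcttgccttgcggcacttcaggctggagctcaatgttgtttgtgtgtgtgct

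The Tnf window lay at chr17:35202008-35202257 on the minus strand, the Tnfrsf1b window at chr4:145246871-145247120 (minus), the Nfkbia window at chr12:55492648-55492897 (minus) and the Traf1 window at chr2:34961773-34962022 (minus). At least 1 window of 7 of the 8 genes held the broad motif, which 45.8% of all 32851 windows of that length also held. The narrower GGGNNTTTCC, contained in the broad one, was found in front of 3 of the 8 genes and in 1.41% of all windows. Nfkb2 had 3 windows and Tnfaip3 had 2, so for both motifs a share of genes and a share of windows are unlike measures. Its matches were GGAAATTCCC at 29 to 20 bases before the Nfkbia start, GGAAATCCCC at 12 to 3 bases before a Tnfaip3 start, and GGGGCTTTCC and GGGACTTTCC before different Nfkb2 starts. The last 3 lie in windows that run partly or wholly through annotated exons of the same gene. A match describes the letters of the window and not binding.

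The libraries held 3557553 to 18793434 counts, with a median of 13874155. UN 6 (4674970 counts) and BBN bladders 1, 3 and 4 (6335499, 3557553 and 7820396 counts) are called shallow here, and the same 4 libraries had the lowest RNA integrity in the study's quality sheet. UN 6 was the lowest UN library for 6 of the 10 genes, and BBN bladder 3 was the lowest BBN bladder for 7. UN 2 held few urothelial transcripts, with a summed CPM (counts scaled to the total of the library) of 32.1 over 10 urothelial markers, against a CPM of 5231 at the UN median. UT 4 reached 1944 CPM over 5 kidney tubule markers, against 3.35 at the UT median. Counts of 3 of the 10 genes had fractional parts. Those of Nfkbia occurred in 20 libraries and were matched by the row Mir1198 in all 37, those of Nfkb2 (14 libraries) by Psd, which overlaps it in the annotation, and those of Birc3 (19 libraries) by its paralog Birc2. Reads of these rows were thus split, by an unknown number, and the levels of these 3 genes are uncertain to that extent.

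**Figure D1:**
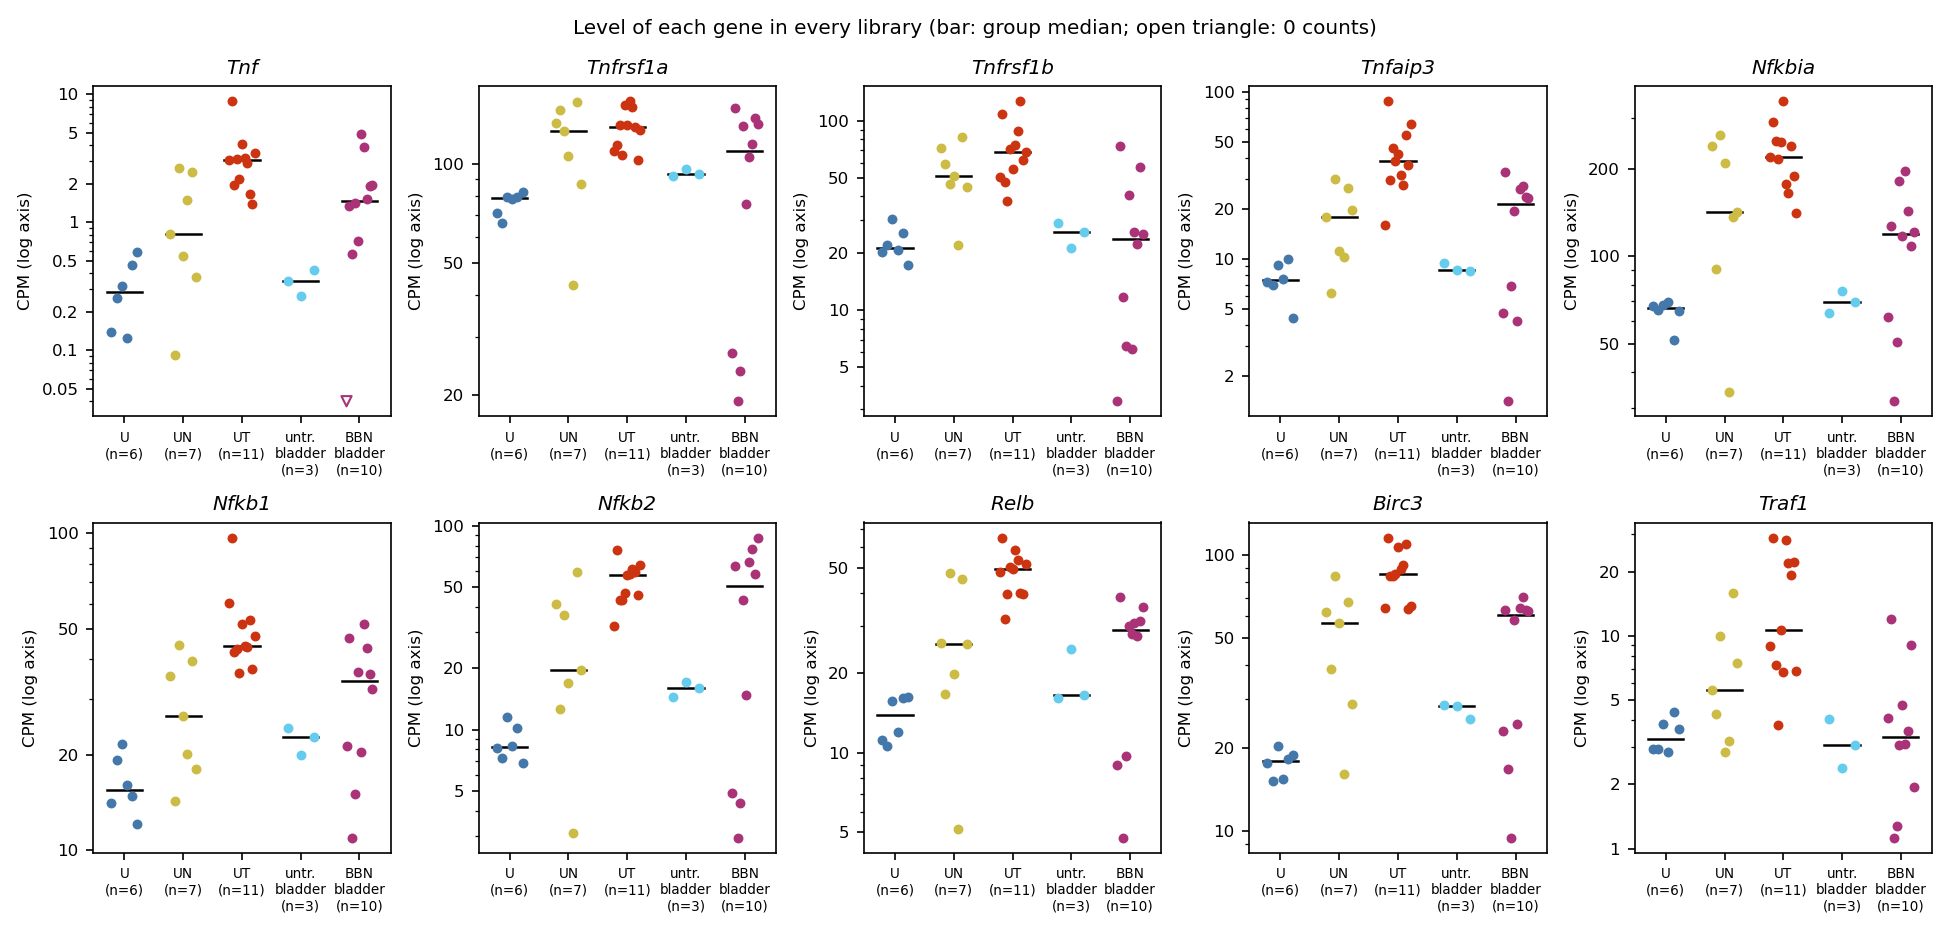
CPM of each of the 10 genes (log axis) in the 37 libraries, by group, with a bar at the group median and an open triangle for 0 counts. Every UT library lay above every U library for 9 genes, and Traf1 was the exception; the 3 shallow BBN bladders sat below the other 7 for Tnfrsf1a, Nfkbia, Nfkb2, Relb and Birc3, as they did for 34.1% of 15374 genes.

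Tnf (chr17:35199381-35202007, GENCODE vM21 on GRCm38) was the least abundant of the 10 genes per length in U, at 0.192 ± 0.111 CPM per kb of exon (SD, n = 6). Its lowest, median and highest levels in U were 0.124, 0.287 and 0.586 CPM, in UN 0.0914, 0.803 and 2.67 CPM, and in UT 1.40, 3.08 and 8.86 CPM. All 11 UT libraries were above all 6 U libraries, while UN overlapped both groups. The untreated bladders had 0.348, 0.266 and 0.421 CPM, and the BBN bladders 0, 1.46 and 4.89 CPM as lowest, median and highest. BBN bladder 1 had 0 of 6335499 counts, which allows up to 0.474 CPM, and the other 9 BBN bladders lay above all 3 untreated ones. These levels rest on few reads, 2 to 9 per library in U and 19 to 123 in UT.

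The receptors were more abundant per length than the ligand in every group. Tnfrsf1a (chr6:125349362-125362484), the widely expressed death-domain receptor, ranged from 66.2 to 82.2 CPM in U (median 78.8), from 43.0 to 153.9 CPM in UN (median 126.2) and from 102.6 to 155.4 CPM in UT (median 129.8). UT lay wholly above U, and UN reached below it only in UN 6. Its untreated bladders had 91.9, 96.6 and 93.3 CPM, and its BBN bladders 19.1, 109.9 and 148.0 CPM as lowest, median and highest. Tnfrsf1b (chr4:145213463-145246870), the receptor without a death domain, had 17.4, 21.3 and 30.3 CPM in U, 22.2, 51.2 and 81.8 CPM in UN and 37.7, 68.1 and 127.2 CPM in UT, as lowest, median and highest. Again no UT library reached down to U, and 6 of 7 UN libraries lay above all U libraries. In bladder it showed 28.9, 21.3 and 26 CPM in the untreated animals and 3.31, 23.9 and 73.9 CPM in the BBN-treated ones.

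Both feedback inhibitors were higher in the BBN-treated ureters. Tnfaip3 (chr10:19000910-19015657), which removes activating ubiquitin chains from the receptor complex, had 4.43, 7.46 and 9.94 CPM in U, 6.21, 17.8 and 29.9 CPM in UN and 15.9, 38.7 and 88.1 CPM in UT. No UT library overlapped U, and 6 of 7 UN libraries exceeded every U library. The untreated bladders lay close together at 9.41, 8.53 and 8.49 CPM, whereas the BBN bladders spread from 1.41 to 33.1 CPM around a median of 21.2. Nfkbia (chr12:55489410-55492647), which holds NF-kB in the cytoplasm, was the most abundant of the 10 genes per length in each group, with 40.1 ± 4.04 CPM per kb of exon in U (SD, n = 6) and 139.8 ± 36.0 in UT (n = 11). On the CPM scale it ranged from 51.7 to 69.7 in U, from 34.1 to 261.3 in UN and from 140.7 to 342.4 in UT. UT and U did not overlap, and UN 6 was the single UN library below all U libraries. Nfkbia was 63.7, 76.3 and 69.7 CPM in the untreated bladders and 31.8, 119.6 and 196.4 CPM (lowest, median, highest) in the BBN bladders.

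The subunit genes followed the same order of groups in ureter. Nfkb1 (chr3:135584655-135691547), which encodes p105/p50 and overlaps the annotated Gm43430, had medians of 15.5 CPM in U, 26.5 in UN and 44.0 in UT, with ranges of 12.1 to 21.6, 14.3 to 44.5 and 36.1 to 96.9 CPM. Nfkb2 (chr19:46304320-46312385), which encodes p100/p52 of the noncanonical pathway, had medians of 8.27, 19.6 and 57.5 CPM in the same groups. Its UN values ran from 3.10 CPM in UN 6 to 59.1 CPM in UN 7, beside 6.9 to 11.5 CPM in U and 32.3 to 75.9 CPM in UT. Relb (chr7:19606217-19629438), the partner of p52, had medians of 13.8, 25.7 and 49.4 CPM, with ranges of 10.6 to 16.3 in U, 5.13 to 47.9 in UN and 32.1 to 65.0 in UT. For all 3 genes UT was wholly above U, and UN overlapped U and UT. In the untreated bladders Nfkb1 had 24.3, 19.9 and 22.8 CPM, Nfkb2 14.4, 17.2 and 16.0 CPM, and Relb 16.0, 24.6 and 16.5 CPM. BBN bladders ranged from 11 to 51.9 CPM for Nfkb1, from 2.95 to 87.7 CPM for Nfkb2 and from 4.78 to 38.8 CPM for Relb.

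Birc3 (chr9:7848699-7873186), a ubiquitin ligase that is recruited with TRAF2 to the TNF receptors, had 15.1, 18.0 and 20.3 CPM in U, 16.0, 56.5 and 83.8 CPM in UN and 63.5, 85.2 and 115.8 CPM in UT, as lowest, median and highest. UT lay wholly above U, and in UN only UN 6 fell within the range of U. Birc3 was 28.7, 28.4 and 25.5 CPM in the untreated bladders and ranged from 9.46 to 70.5 CPM in the BBN bladders, with a median of 60.5. Traf1 (chr2:34941750-34961772), an adaptor that joins TRAF2 and the cIAPs, was scarce in U, at 2.85 to 4.39 CPM, and spread from 2.83 to 15.9 CPM in UN and from 3.81 to 29.0 CPM in UT. It was the gene of the 10 for which UT and U overlapped, by UT 4 alone. Its bladder values were 4.04, 2.40 and 3.07 CPM without BBN and 1.12 to 12 CPM with it. UT 2 was the highest UT library for 7 of the 10 genes.

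Ordered by their median level, the 5 groups gave 40 neighbouring pairs over the 10 genes, each compared by a two-sided permutation test on log2(CPM + 0.5), exact except for BBN bladder against UT. After Benjamini-Hochberg adjustment over the 40 pairs, 3 passed 0.05, all with UT above BBN bladder: Tnfaip3 (adjusted permutation p = 0.0123), Relb and Birc3 (adjusted permutation p = 0.0032 each). Of the 15374 genes with a mean of at least 1 CPM, 2.48% had UT above BBN bladder at an exact permutation p no greater than that of Tnfaip3. Of the 10 genes 6 met this, namely these 3 and Nfkbia, Tnfrsf1b and Traf1, whose UT and BBN bladder medians are not neighbours in the order. UT and the BBN bladders come from the same mice, which these tests leave out of account. In tests added after the data were seen, UT was higher than the bladder in 10 of 10 mice for each of the 3 genes (two-sided exact sign-flip permutation, adjusted p = 0.026 each, both UT libraries of mouse 5 averaged). Without the 3 shallow bladders, the differences of Relb (0.57 against 1.17 on the log2 scale) and Birc3 (0.62 against 1.16) still passed (adjusted exact permutation p = 0.0151 and 0.0327) and that of Tnfaip3 (0.99 against 1.67) did not (adjusted exact permutation p = 0.106). By mouse without those bladders UT was higher in 7 of 7 for each gene, and none passed (adjusted exact permutation p = 0.106 each). Their unadjusted exact sign-flip permutation p was 0.0156 each, the smallest that 7 mice allow. Beside the other pairs this value could not pass, so no conclusion is drawn from it. The other 37 pairs did not pass, among them U below untreated bladder for Tnfrsf1a, Nfkb2 and Birc3, where the groups did not overlap (adjusted exact permutation p = 0.127 each). Their unadjusted exact permutation p was 0.0238 each, the smallest that 6 against 3 libraries allow. Beside the other pairs even full separation could not pass, so these 3 results decide nothing.

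**Figure D2:**
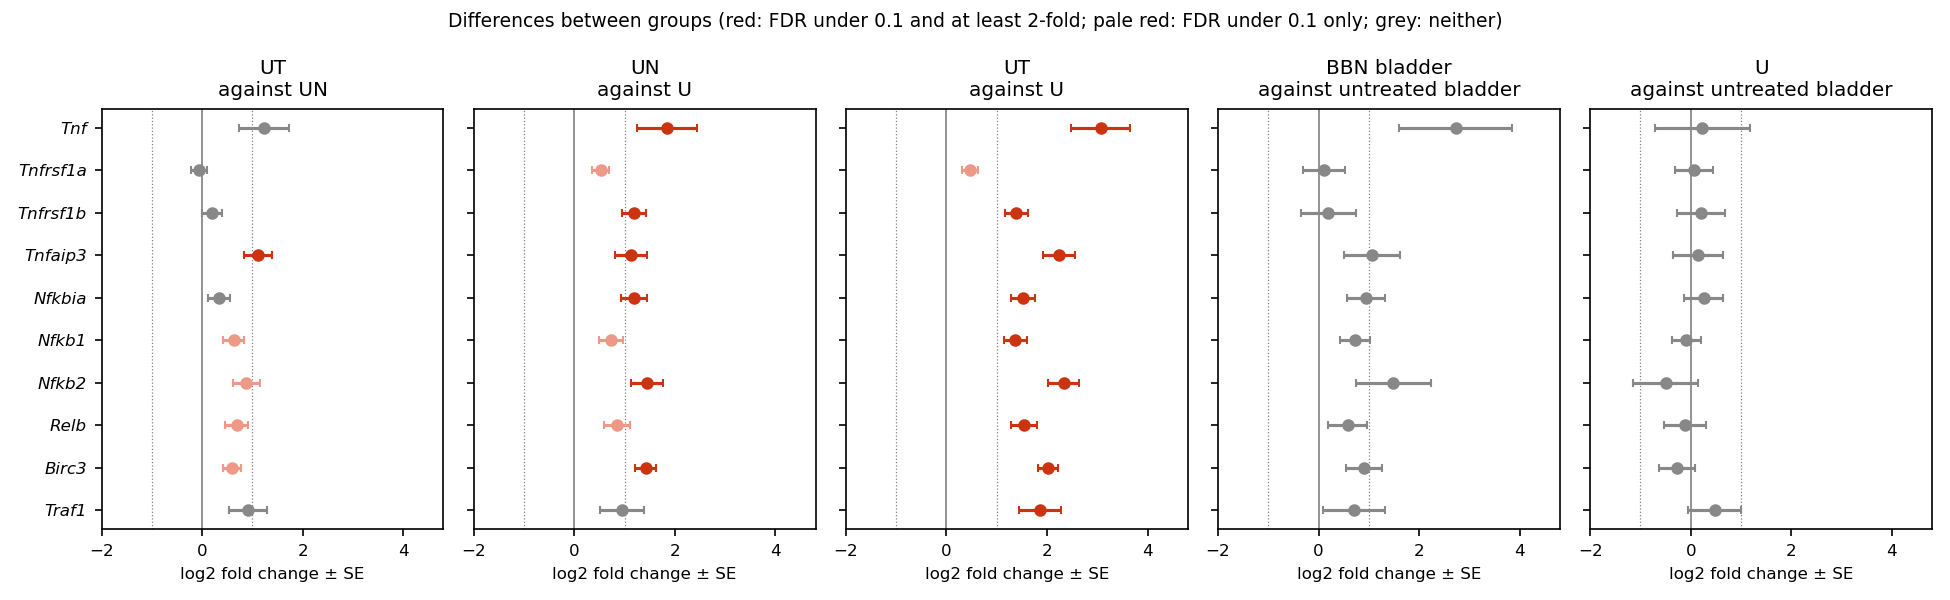
Log2 fold change with its standard error for each of the 10 genes in 5 comparisons (edgeR). Dotted lines mark 2-fold; red points passed FDR under 0.1 and 2-fold, pale red points FDR alone, and grey points neither: 9 genes are red in UT against U and 0 in the bladder comparison.

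Genes were then compared with edgeR's quasi-likelihood test, adjusted by Benjamini-Hochberg over all genes tested, and a gene was called at an adjusted p (FDR) under 0.1 and a change of at least 2-fold. UT, UN and U were fitted together, so their 3 comparisons share libraries and are not independent. The first compared the cancer-bearing ureter with the untreated one. All 10 genes passed the FDR on the higher side, as did 30.1% of the 15658 genes tested, and 9 were called, against 18.7% of all genes. Tnf rose most, by a log2 fold change of 3.07 ± 0.59 (SE), an 8.41-fold difference (FDR 0.000349). Nfkb2 rose by 2.34 ± 0.31, Tnfaip3 by 2.24 ± 0.32 and Birc3 by 2.02 ± 0.20 (FDR 1.94e-05, 3.56e-05 and 1.81e-06). Traf1 (1.86), Relb (1.54), Nfkbia (1.52), Tnfrsf1b (1.39) and Nfkb1 (1.37) were also called, while Tnfrsf1a changed by 0.46 ± 0.16 (FDR 0.0228) and stayed under 2-fold. The median log2 fold change of the 10 genes was 1.70, and that of all genes tested was 0.11. Every UT library was above every U library for 9 of the 10 genes, as it was for 15.1% of the 15374 genes with a mean of at least 1 CPM. With libraries of 1 mouse summed, the 9 calls remained, at FDR values of 0.00201 to 0.0351.

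The second comparison set the ureter without cancer of BBN-treated mice against the untreated one. The 10 log2 fold changes of UN over U were all positive. By the FDR alone 9 passed, against 16.0% of all genes, and 6 were called, against 12.5%. The 6 called genes were Tnf (1.85 ± 0.60, FDR 0.0432), Nfkb2 (1.45 ± 0.32, FDR 0.00518), Birc3 (1.42 ± 0.21, FDR 0.00056), Tnfrsf1b (1.19 ± 0.24, FDR 0.00293), Nfkbia (1.18 ± 0.26, FDR 0.00554) and Tnfaip3 (1.13 ± 0.32, FDR 0.0225). Relb (0.85), Nfkb1 (0.74) and Tnfrsf1a (0.53) passed the FDR under 2-fold, and Traf1 (0.94, FDR 0.153) passed neither. Without UN 3, 6 of the 10 passed the FDR, those of Tnf, Relb (FDR 0.115) and Nfkb1 (FDR 0.117) being lost, and the pass of Tnfrsf1a ended without UN 2, U 1L or U 1R. The 6 U libraries come from 3 mice and were closely alike, with a biological dispersion of 0.037 against 0.371 in UN. When both ureters of a mouse were summed, Birc3 was called (log2 fold change 1.42, FDR 0.0722), against 0.901% of all genes called higher, and the other 9 genes had FDR values of 0.112 to 0.437. UN and U overlapped for all 10 genes, while 2.07% of the 15374 genes had every UN above every U library. Without UN 3 the calls of Tnf (1.48, FDR 0.131) and Tnfaip3 (0.94, FDR 0.0668, under 2-fold) were lost, that of Tnf also without U 2L, and without UN 4 Traf1 was called (FDR 0.097).

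The third comparison set the cancer-bearing against the cancer-free ureter of BBN-treated mice. Tnfaip3 was called, at 1.11 ± 0.28 (FDR 0.0728), so 1 of the 10 genes against 1.32% of all genes called higher. Birc3 (0.60 ± 0.18), Nfkb2 (0.88 ± 0.27), Nfkb1 (0.63 ± 0.21) and Relb (0.69 ± 0.23) also passed FDR under 0.1 below 2-fold, which made 5 of 10 against 2.41% of all genes by the FDR alone. Tnf had a log2 fold change of 1.23 ± 0.50 (FDR 0.137), Traf1 of 0.92 (FDR 0.147), Nfkbia of 0.34 (FDR 0.33), Tnfrsf1b of 0.20 and Tnfrsf1a of -0.06. Left out 1 at a time, 17 of the 24 libraries ended the FDR pass of Relb, 15 that of Nfkb1, 8 that of Nfkb2 and 7 that of Birc3. None of the 5 passes held when the mouse was a block in the fit (FDR 0.799 for 8 of the 10 genes, 0 of 10 called) or when UN 6 was left out (FDR 0.215 for Tnfaip3, 0 called). The call of Tnfaip3 was also lost without any 1 of UT 2, UN 2, UT 5R, UT 5L or UT 10. Without UT 9, Tnf (1.31, FDR 0.0908) and Tnfaip3 (1.13, FDR 0.0357) were called, against 2.8% of all genes called higher, and without UN 3 or UN 7 4 genes were called, Tnf, Tnfaip3, Nfkb2 and Traf1, against 3.72% and 3.94% of all genes called higher. UT and UN overlapped for all 10 genes, and 0.0065% of the 15374 genes had every UT above every UN library.

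**Figure D3:**
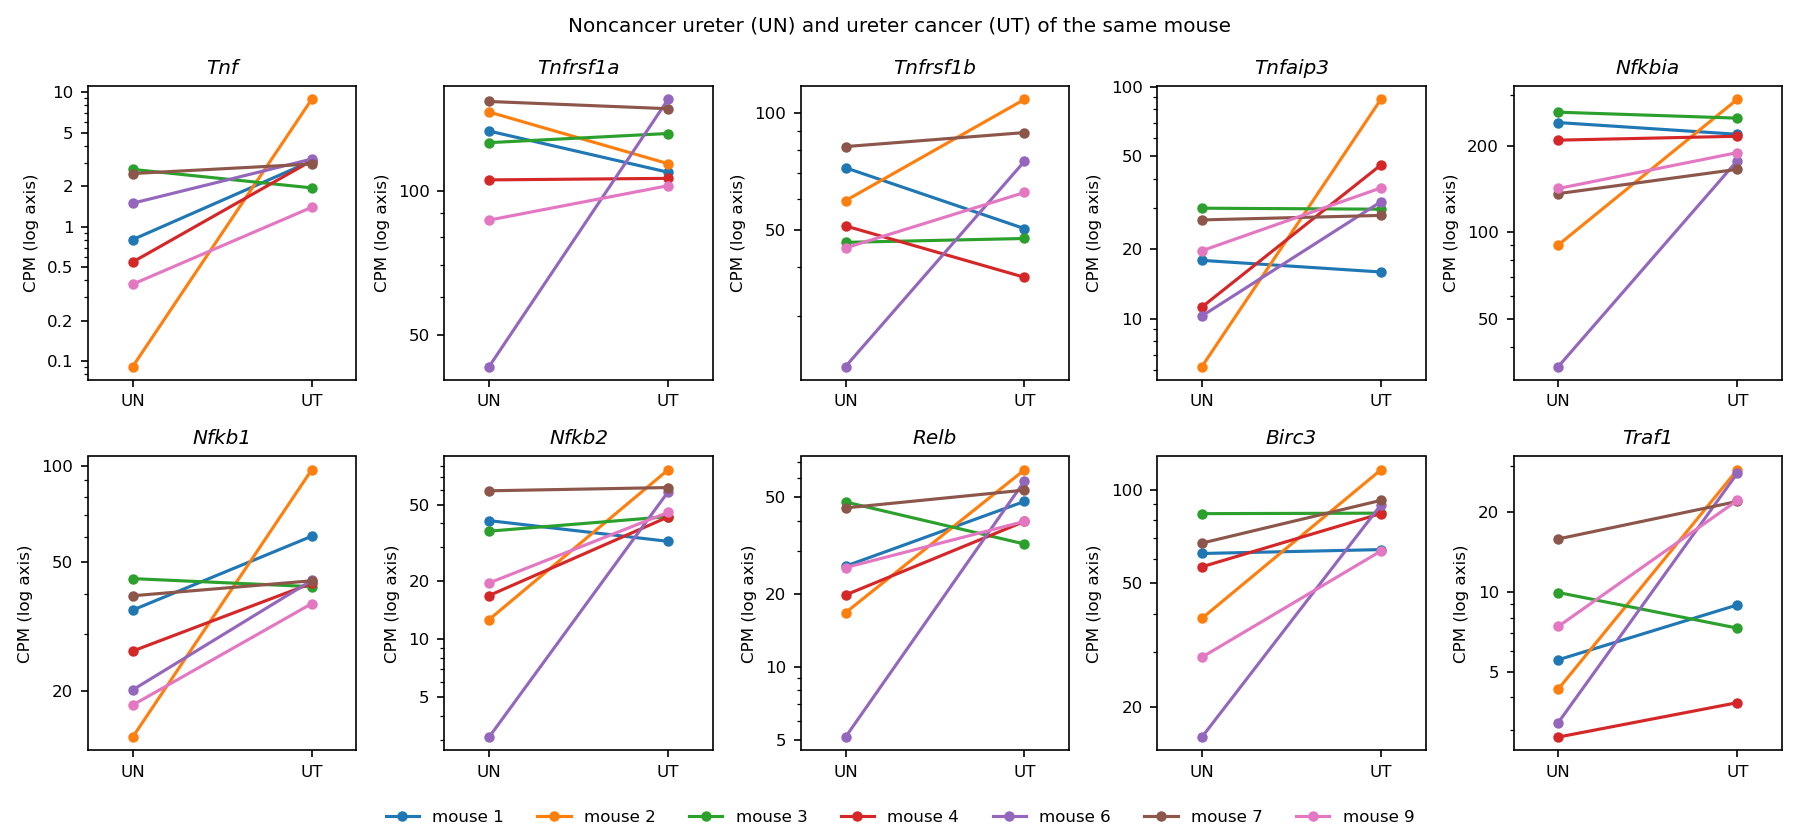
CPM (log axis) in the cancer-free (UN) and cancer-bearing (UT) ureter of the same mouse, 1 line per mouse for 7 mice. Birc3 is higher in UT on all 7 lines, by 0.01 and 0.04 on the log2(CPM + 0.5) scale in mice 3 and 1, while the lines of Tnfrsf1a run both ways.

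Within the 7 mice with both sides, Birc3 was higher in UT in 7 of 7, by a mean of 0.89 ± 0.89 on the log2(CPM + 0.5) scale (SD, n = 7 mice, two-sided exact sign-flip permutation p = 0.0156, the smallest the design allows). Tnf was higher in 6 of 7 mice, by 1.29 ± 1.40 (exact permutation p = 0.0469), the widest in mouse 2 (0.0914 CPM, from 1 read, in UN 2 and 8.86 CPM in UT 2). Nfkb1 (exact permutation p = 0.0312), Relb and Traf1 (0.0469 each, same exact permutation test) were higher in all mice but mouse 3, and Nfkb2 in all but mouse 1 (exact permutation p = 0.0781). Tnfaip3, Nfkbia and Tnfrsf1b were higher in 5 of 7 and Tnfrsf1a in 4 of 7. After adjustment over the 10 genes, the lowest exact permutation p was 0.0938, so no gene passed 0.05. For Tnfrsf1b, Nfkbia, Nfkb1, Nfkb2, Relb, Birc3 and Traf1 the widest differences were those of mice 2 and 6, whose UN libraries were the one with few urothelial transcripts and the shallow one.

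In bladder, the effect of BBN was tested in 10 against 3 libraries. The 10 log2 fold changes were positive, but 0 of 10 genes were called, against 7.61% of 18050 genes called higher (7.72% by the FDR alone). Tnf had 2.73 ± 1.12 (FDR 0.136), Nfkb2 1.49 ± 0.75 (FDR 0.193), Tnfaip3 1.07 ± 0.56 (FDR 0.207), Nfkbia 0.95 ± 0.37 (FDR 0.127) and Birc3 0.90 ± 0.36 (FDR 0.132). Nfkb1 (0.73), Traf1 (0.70), Relb (0.58), Tnfrsf1b (0.20) and Tnfrsf1a (0.11) were at FDR values of 0.13 to 0.876. By unadjusted p under 0.05, 4 of the 10 passed, against 29.3% of all genes in either direction, and DESeq2 called 4 (Tnf, Nfkb2, Tnfaip3 and Nfkbia), against 25.7% of all genes by that tool. None of the 10 genes had all BBN bladders above all untreated ones, against 5.16% of the 15374 genes. The 3 shallow BBN bladders lay below the other 7 for Nfkbia, Nfkb2, Relb, Birc3 and Tnfrsf1a, 5 of the 10 genes against 34.1% of the 15374 genes. Nfkb2, for instance, was 2.95 to 4.89 CPM in those 3 and 14.8 to 87.7 CPM in the others.

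Without those 3 bladders, 5 of the 10 genes were called, against 11.3% of the 15735 genes then tested. Tnf rose by 2.98 (FDR 0.0277), Nfkb2 by 1.92 (FDR 0.00357), Tnfaip3 by 1.36 (FDR 0.0255), Nfkbia by 1.14 (FDR 0.0125) and Birc3 by 1.13 (FDR 0.0027), on the log2 scale. Relb (0.85), Nfkb1 (0.84) and Tnfrsf1a (0.44) passed the FDR under 2-fold, which made 8 of 10 against 14.5% of all genes by the FDR alone. BBN bladder 6, whose column name carries a T while its title says only bladder, had the highest Tnf of the bladders (4.89 CPM). In the fit of all other 12 bladders Tnf had a log2 fold change of 2.30 (FDR 0.169), beside 2.73 with it, and was called in neither.

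Untreated ureter and untreated bladder were compared to see whether the organs start from different levels. The fit also held UN and the BBN bladders. Its biological dispersion was 0.441, beside 0.037 in U and 0.024 in untreated bladder alone. The standard errors thus carry the spread of the treated groups as well. None of the 10 genes was called (log2 fold changes of U over bladder from -0.49 ± 0.65 for Nfkb2 to 0.48 ± 0.53 for Traf1), against 14.9% of 18786 genes called in either direction, and 0 passed an unadjusted p under 0.05 or were called by DESeq2, against 22.9% and 18.0% of all genes. The fit scales libraries by TMM, and 5 of its 6 positive fold changes, those of Tnf, Tnfrsf1a, Tnfrsf1b, Tnfaip3 and Nfkbia (0.07 to 0.26), belong to genes whose mean CPM was lower in U than in untreated bladder, such as Tnfrsf1a (76.1 against 93.9). With the mouse as a block, Nfkb2 (-0.49, FDR 0.015), Nfkbia (0.27, FDR 0.0912) and Traf1 (0.50, FDR 0.0992) passed the FDR, each under 2-fold, so 3 of the 9 genes then tested against 64.0% of all genes. U lay wholly below untreated bladder for 3 genes, against 46.1% of the 15374 genes. The effect of BBN in ureter (UN over U) was compared with that in bladder as an interaction, in which 0 of the 10 genes were called by edgeR or DESeq2 or passed an unadjusted p under 0.05, against 2.06% of all genes called by edgeR, 4.93% by DESeq2 and 12% at that unadjusted p. The differences ran from -0.88 ± 1.17 for Tnf to 0.95 ± 0.57 for Tnfrsf1b (FDR 0.801 and 0.531).

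**Figure D4:**
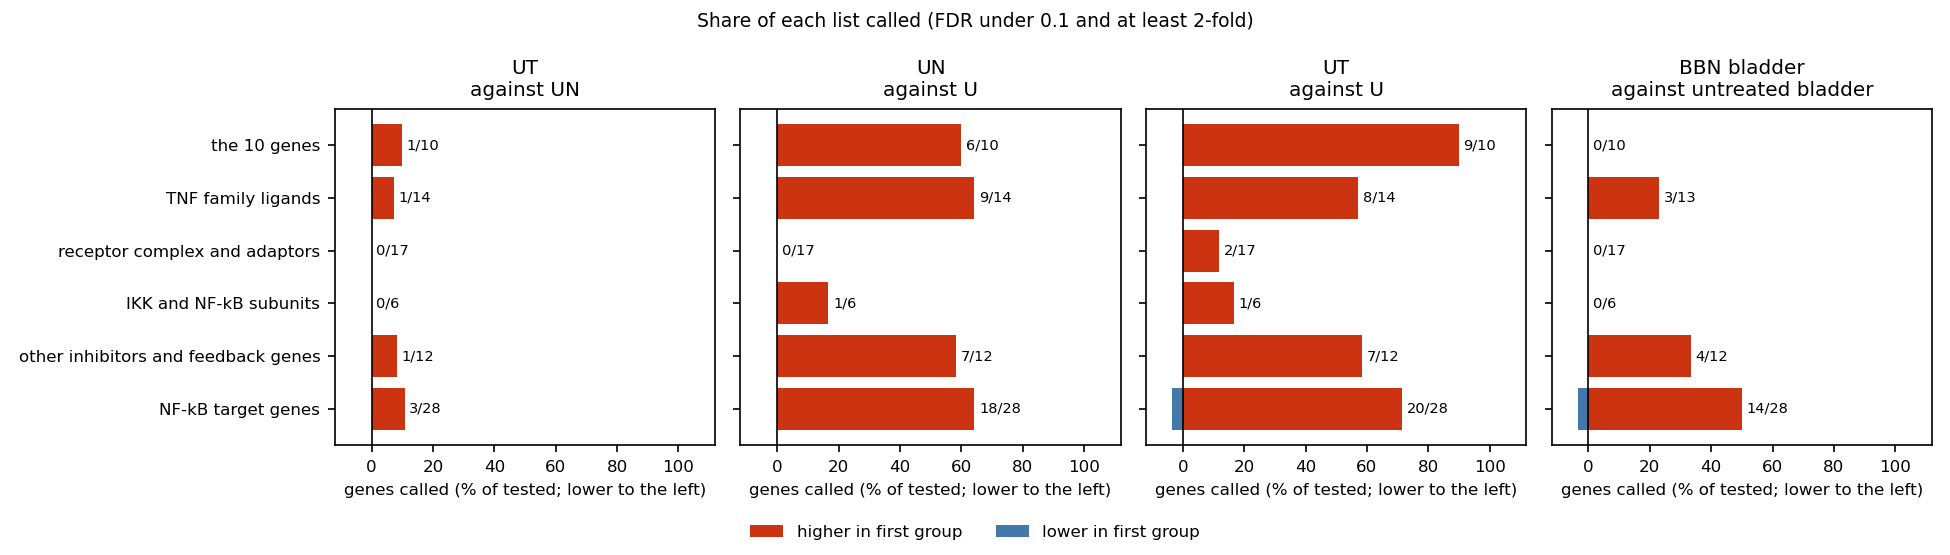
Percent of the tested genes of each list that were called, in 4 comparisons, with the count called higher of those tested beside each bar (higher to the right of 0, lower to the left). In UT against U, 20 of 28 targets and 2 of 17 adaptors were called higher.

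The rest of the pathway was followed in 5 lists of 78 genes, of which 77 could be tested in ureter. Of all genes, as given above, 12.5% were called higher in UN against U, 18.7% in UT against U, 1.32% in UT against UN and 7.61% in bladder. Without the shallow libraries 32 instead of 35 of the 77 were called higher in UN against U, 38 in both cases in UT against U, 0 instead of 5 in UT against UN, and 26 instead of 21 of 76 in bladder. The shares of all genes called higher in those fits were 10.3%, 18.2%, 0.0321% and 11.3%. The 6 U libraries come from 3 mice, and with libraries of 1 mouse summed 8 of the 77 genes were called higher in UN against U (0.901% of all genes), 35 in UT against U (13.7%) and 0 in UT against UN. In UN against U these were 2 of the 14 ligands, 4 of the 12 inhibitors and feedback genes and 2 of the 28 targets. Tnfsf4, Tnfsf11, Bcl3, Ier3 and Ccl20 stayed among the calls (edgeR, FDR 0.0721 to 0.0956), while Tnip3 (FDR 0.168), Lcn2 (FDR 0.124), Saa3 (FDR 0.217) and Rel (FDR 0.233) did not. Among 14 other TNF family ligands, 9 were called higher in UN than in U and 8 in UT than in U, against the 12.5% and 18.7% of all genes, with medians of 1.37 and 2.14 on the log2 scale against 0.13 and 0.11 for all genes. Tnfsf4 (OX40 ligand, a costimulator of T cells) rose by 6.04 in UN and 5.92 in UT, and Tnfsf11 (RANK ligand) by 4.77 and 5.26. Tnfsf9, the 4-1BB ligand, rose by 3.73 in UT, and in UT against UN the death ligand Tnfsf10 was the 1 ligand called, at 1.27 ± 0.34 (FDR 0.0728), a call lost without UN 6 (1.39, FDR 0.215).

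Of 17 genes of the receptor complex and its adaptors, 0 were called in UN against U and 2 in UT against U, Tradd (1.21 ± 0.25), which links TNFR1 to its complex, and Traf3 (1.2 ± 0.27), an inhibitor of noncanonical NF-kB, against the 18.7% of all genes. By the FDR alone 8 of the 17 were higher in UT than in U, against 30.1% of all genes. Of the 6 IKK and NF-kB subunits outside the 10 genes, Rel (c-Rel) was the 1 called, at 1.09 in UN and 1.97 in UT against U, the first falling to 0.95, under 2-fold, without UN 6 and also lost without UN 7, U 1R or U 2R. Of 12 further inhibitors and feedback genes, 7 were called higher in each of UN and UT against U (12.5% and 18.7% of all genes). Tnip3, which binds A20, rose by 3.21 in UN and 5.57 in UT, Bcl3, a nuclear IkB protein, by 2.16 and 3.02, and Ier3 by 2.35 and 2.89. Tnip3 was also called in UT against UN, at 2.36 ± 0.64 (FDR 0.0731), but not without UN 6 (2.25, FDR 0.215).

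Among 28 NF-kB target genes, 18 were called higher in UN than in U, 3 higher in UT than in UN, and, between UT and U, 20 higher and 1 lower, where 12.5%, 1.32% and 18.7% of all genes were called higher. The neutrophil chemokine Cxcl5 rose by 7.91 ± 1.10 in UT against U and by 2.49 ± 0.72 in UT against UN. Lcn2, a neutrophil granule and epithelial iron-binding protein, rose by 7.85 in UN and 7.72 in UT against U, Cxcl2 by 7.29 in UT, and Ccl20 and Saa3 by 5.64 and 5.55 in UN. Csf3 (G-CSF, 2.74 ± 0.62) and Icam1 (1.01 ± 0.27), an adhesion molecule, were the other targets called in UT against UN. Leaving out any 1 of UN 2, UN 6, UT 2, UT 5R, UT 5L or UT 10 ended the calls of Tnfsf10, Tnip3, Cxcl5, Csf3 and Icam1 in UT against UN, and UN 1 or UN 9 also that of Icam1. Without UN 6 none of these 3 targets was called (FDR 0.171 for Csf3 and 0.215 for Cxcl5 and Icam1), and with the mouse as a block Cxcl5 and Icam1 were at FDR 0.799. Sele, an endothelial adhesion molecule, fell by 1.46 in UT against U, where 5 endothelial markers had a median log2 fold change of -0.82 (3 of 5 lower by the FDR, 1 called), and it was not called with libraries of 1 mouse summed (-1.39, FDR 0.127). In the bladder, 14 targets were called higher and Sele lower (-3.97 ± 0.59, FDR 0.000587), beside 4 feedback genes (Tnip3, Ier3 and Bcl3 among them, at 4.11, 2.69 and 2.29) and 3 ligands (Tnfsf4, Tnfsf15 and Tnfsf9, at 6.77, 3.79 and 2.85), against 7.61% of all genes called higher. Without the shallow bladders the counts were 16 targets, 4 feedback genes, 5 ligands and 1 IKK or NF-kB subunit, against 11.3% of all genes. Cxcl2 (7.65 ± 1.41) and Cxcl5 (7.61 ± 1.19) rose there as well, and Lcn2 by 7.71 ± 2.45. Without the shallow bladders Lcn2 was at 4.7 and Tnfsf15 at 2.27, both still called. Leaving out any 1 of the 3 untreated bladders ended the calls of Lcn2, Tnfsf15 and Bcl3, and that of Bcl3 was also lost without BBN bladder 2, 5 or 6. The endothelial markers had a median of -0.90 in the bladder (1 of 5 called lower) and of 0.29 in the comparison of organs (0 called), and their part in the levels of Sele was not tested. Without BBN, Sele was already lower in U than in untreated bladder, by a log2 fold change of -3.00 ± 0.58 (FDR 0.00103). In that comparison 2 of the 77 genes were called higher (Mmp3 and Sod2) and 4 lower (Sele, Tnfsf11, Csf3 and Ier3), against 14.9% of all genes in either direction, and with libraries of 1 mouse summed Sele was the 1 gene called. The change of Sele with BBN gave an interaction between the organs of 3.54 ± 0.72 (FDR 0.00969), which made 1 of the 77 genes called, against 2.06% of all genes. Without the shallow libraries it was 4.19 (FDR 0.000404), and 2 of the 77 genes were called, against 6.12% of all genes. With libraries of 1 mouse summed it was 3.46 (FDR 0.127) and 0 of the 77 were called, against 0.39% of all genes.

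**Figure D5:**
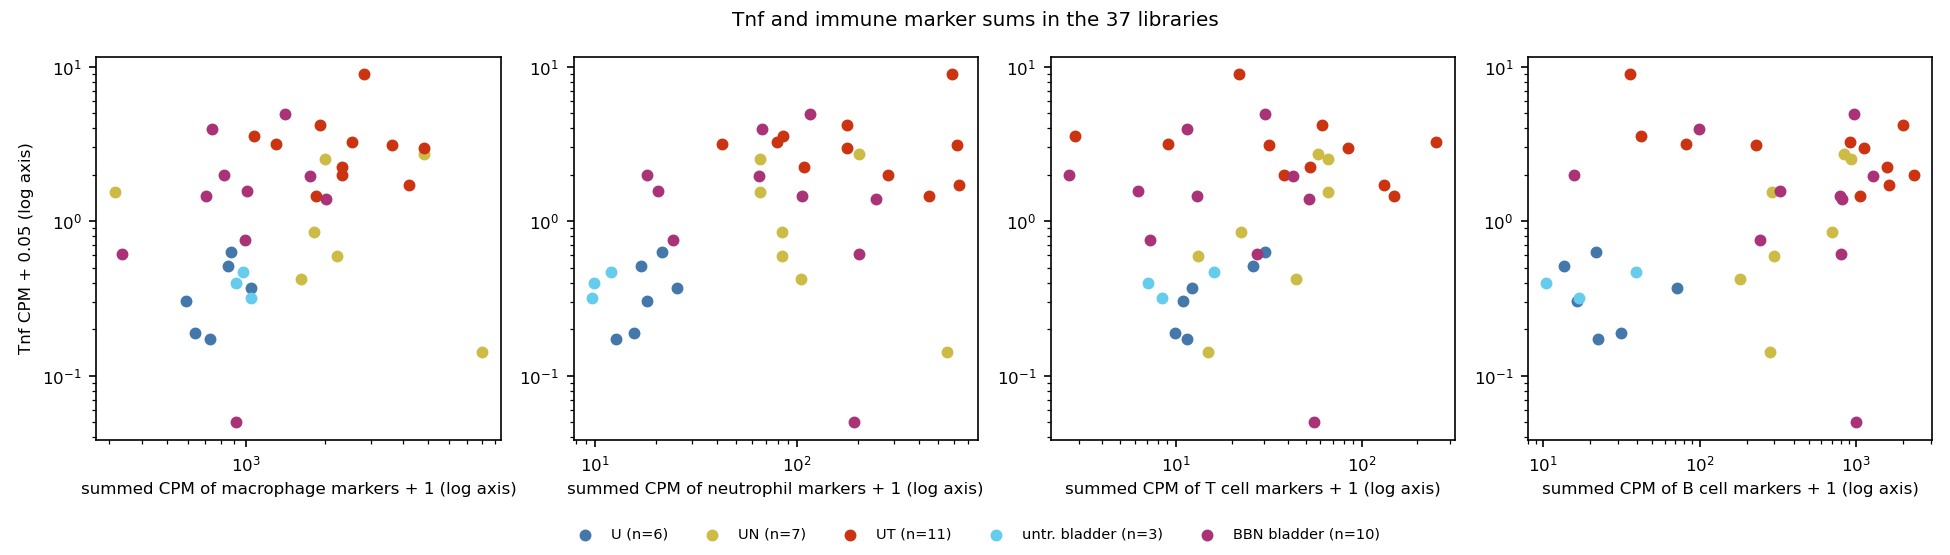
Tnf (CPM + 0.05) against the summed CPM + 1 of macrophage, neutrophil, T cell and B cell markers in the 37 libraries, both on log axes, colored by group. U libraries lie at or below 0.586 CPM of Tnf; UN 2 has the highest macrophage sum of all libraries with Tnf at 0.0914 CPM, and UT 2 has the highest Tnf, with sums of 2838 CPM for macrophages, 580.8 for neutrophils, 20.7 for T cells and 34.9 for B cells.

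Markers of immune cells had higher median sums in UN and UT than in U. The summed level of 8 macrophage markers had medians of 791, 2003 and 2325 CPM in U, UN and UT, with ranges of 590.7 to 1043, 313.8 to 8026 and 1072 to 4796 CPM, and 5 of the 8 were called higher in UN and also in UT, each against U (12.5% and 18.7% of all genes). Neutrophil markers had medians of 16.4, 83.1 and 176.2 CPM (7 of 8 in the table), with ranges of 11.7 to 24.3, 64.3 to 549.3 and 41.5 to 634.0 CPM. B cell markers had medians of 21.2, 298.5 and 1062 CPM, and T cell markers 10.8, 43.6 and 51.6 CPM. Called higher in UN against U were 6 of 6 neutrophil, 4 of 5 B cell and 0 of 7 T cell markers, and in UT against U 5 of 6, 5 of 5 and 6 of 7. With libraries of 1 mouse summed, 0 markers of these 4 lists were called in UN against U, and 3 of 8 macrophage, 4 of 6 neutrophil, 4 of 5 B cell and 0 of 7 T cell markers in UT against U. No list had a marker at 0 in all libraries of a ureter group. In the fit of UT against UN none of these immune markers was called: 1 of 8 macrophage and 2 of 6 neutrophil markers had positive fold changes (medians of -0.29 and -0.18), beside 7 of 7 for T cells and 5 of 5 for B cells (0.61 and 1.08). Without UN 6 the neutrophil median turned to 0.22, with 3 of 6 positive, and the T cell median was 1.0. Of the other lists, smooth muscle had a median of -1.28 in that fit (0 of 6 positive, 3 called lower) and adipocytes -1.70 (0 of 5 positive, 0 called). Median urothelial sums were 2589, 5231 and 5380 CPM and smooth muscle sums 2678, 918.7 and 791.2 CPM in U, UN and UT. Adipocyte sums ran the other way from the immune ones, with medians of 17733, 9641 and 4072 CPM. In bladder the median neutrophil sum was 8.86 CPM without BBN and 85.0 with it, and the median macrophage sum 978.1 and 953.6 CPM. The median urothelial sum was 20988 CPM without BBN and 5665 with it, that of smooth muscle 9532 and 3715, and that of fibroblasts 6009 and 1411 CPM. The part of these cells in the levels of the 10 genes was not tested.

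Over the 37 libraries, the 45 pairs of the 10 genes had Spearman correlations of log2(CPM + 1) from 0.44 (Tnf with Tnfrsf1b) to 0.92 (Relb with Birc3), with a median of 0.77. The points share group, depth and RNA quality, and the values only describe these libraries. Of 15374 genes with a mean of at least 1 CPM, those most like Tnf were Ptma (0.85), Tnfsf9 (0.85) and Gmnn (0.84). Relb was most like Sh3bp2, Rnf122 and Birc3 (0.92 each), and Nfkbia was most like Mir1198 (0.98), followed by Nfkbib and Miip (0.86 each). Mir1198 is the row whose fractional counts match those of Nfkbia in all 37 libraries, and it is placed on chromosome X in the reference used here, whereas Nfkbia is on chromosome 12.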

How the data were processed

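Total RNA was made into SMARTer HT and Nextera XT libraries. Per the submitters' processing notes, TopHat2 2.1.1 and Cuffdiff 2.2.1 were used with GRCm38/mm10; the counting settings, strand and treatment of multi-mapped reads are not given in the sources used here. The authors deposited estimated counts per gene symbol for 37 libraries, not normalized, and 21.1% of nonzero values were fractional. Values were rounded to whole numbers for testing, and CPM was taken over each library's total. Libraries were mapped by description, and 0 columns were left without a sample.

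edgeR 4.0.16 (R 4.3.3) was used with TMM normalization, filterByExpr and quasi-likelihood fits over 24 ureter, 13 bladder or 26 mixed libraries. Log2 fold changes carry standard errors taken from the F statistic. DESeq2 1.42.0 and limma 3.58.1 (trend, prior count 4) were alternatives. Permutation tests used scipy 1.17.1. Libraries of 1 mouse (U and UT 5) are not independent, and p-values over libraries are too small to that extent. On simulated counts, 88.5% of 200 genes changed 4-fold were recovered for UT against UN among 15558 genes (11 false calls). For the bladder comparison it was 20.5% among 17604 genes (2 false calls). The biological dispersion of the data was 0.037 in U, 0.371 in UN and 0.320 in UT. In UT against UN, 864 genes were called in the main fit and 0 with the 2 groups alone. How unequal dispersion between groups changes the recovery and the false calls was not tested. The labels number the mice, so UT and UN with 1 number are from 1 animal; their deviations from the group means correlated at a median of 0.036 over 7 pairs (-0.0069 over 70 pairs of different mice). Counts of any pair of libraries in a group differed beyond sampling noise (chi-square over its degrees of freedom at least 7.37), so none was counted as a copy.

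Named are the 10 genes, up to 3 called genes per list, direction and comparison with the largest fold change, and the 3 genes most like Tnf, Nfkbia and Relb; UN 2, UT 4 and the rows with matching fractional counts were singled out after their values were seen. The genes and lists were chosen with earlier results of these data known. Promoters are from RefSeq GRCm38.p6, coordinates from GENCODE vM21. Alternatives were normalization, filter, tool, samples, block, RNA integrity, library code range and single libraries left out; the block for the comparison of organs and the tests of UT against BBN bladder by mouse or without shallow libraries were chosen after seeing the data. The study's legends count 1 UT library fewer than the labels and do not name it; UT 9 was left out in 1 alternative, and its choice rests on no source given here.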

Additional observations from a re-analysis of the deposited data

Results flagged for a closer look

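In 33 groups of 6 to 10 libraries, the lowest and highest library was set against the others for each of the 10 genes and for the total count, and 2 stood apart, where chance flags about 1 group in 20. Nfkbia in U 3R was far below the other 5 U libraries, at 5.71 on the log2(CPM + 0.5) scale against 6.03 in the nearest, U 3L; without U 3R, the call of Nfkbia in UN against U did not change. The total count of UN 6, 4675000 after rounding to 4 digits, was far below the nearest UN library (10940000, UN 2).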

How the results depend on the processing

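In UT against U, all 9 calls kept their side under every alternative run. In UT against UN, the number of genes called (864) was 1390 with no filter, 1391 by DESeq2, 63 by limma-trend, 6 without the 4 shallow libraries, 1683 without UT 9, 0 with the 2 groups alone, 13 with summed libraries, 0 with RNA integrity (RIN) as a covariate, 26 in the first range of library codes and 492 with all 37 libraries. With the mouse as a replicate block, 0 genes and 0 of the 10 were called. The members called (1) were 2 by DESeq2 and without UT 9, and 0 by limma-trend, without the shallow libraries, with the 2 groups alone, summed, with RIN and in the first code range. Leaving out single libraries gave 5 to 1854 genes and 0 to 4 of the 10 genes, and -0.13 to 0.11 for Tnfrsf1a. In UN against U, summed libraries left 157 genes and 1 of the 10, and limma-trend lost the call of Tnf (1.03, FDR 0.132). In the bladder, the genes called (2409) were 5799 by DESeq2, 4401 in the first code range and 5662 with all libraries, and the members called (0) were 1 with RLE, 4 by DESeq2, 5 without the shallow libraries, 5 with RIN and 2 with all libraries; single libraries left out gave 1024 to 2711 genes, 0 to 3 of the 10, and -0.025 to 0.34 for Tnfrsf1b. Tnfrsf1a turned to -0.031 (limma-trend) and -0.091 (first code range) and Tnfrsf1b to -0.12 (limma-trend). In U against untreated bladder, 4602 genes were called with the mouse as a block and 1369 summed, and 1633 to 3178 without single libraries, where Relb ran from -0.25 to 0.11, Tnf from -0.13 to 0.39 and Tnfrsf1a from -0.034 to 0.11. In the comparison of organs, 926 genes were called by DESeq2, 1009 without shallow libraries, 618 with the block and 73 summed, and 149 to 590 without single libraries; Tnfaip3 turned to -0.042 (RLE), -0.048 (DESeq2), -0.23 (without shallow libraries), -0.0033 (summed) and -0.072 (without BBN bladder 6), Nfkb1 to 0.0051 (no filter), Nfkb2 to 0.19 (limma-trend) and 0.48 (block), and Traf1 to -0.13 (block). Single libraries left out gave -0.18 to 0.073 for Nfkb1, -0.32 to 0.12 for Nfkb2, -0.17 to 0.15 for Tnfaip3 and -0.049 to 0.40 for Traf1. The block changed no other call of the 10 genes where it could be fitted. The cause was not tested for any of these. RLE moved the median of all genes from 0.25 to 0.35 in the bladder and from -0.10 to -0.24 in the comparison of organs. Tnf fell to the filter, and so has no value, in UN against U with the 2 groups alone and in U against untreated bladder with the block. For UT above BBN bladder, Tnfaip3 did not pass without the shallow bladders, and by mouse without them none of Tnfaip3 (1.2), Relb (0.67) and Birc3 (0.66) did. The test by mouse could not pass with the 7 mice left, so it does not measure a dependence on processing. Tnf rests on 2 to 9 reads per U library.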
